A study of Ipomoea batatas with 12 samples.

Results

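HPD (G38888) and HGO (G234) are 2 of the 50592 genes listed for sweetpotato (Ipomoea batatas) cv. Xuzishu 8. They were chosen by name, as the IDs that carry these symbols in the study's lists of called genes. Those lists name 228 IDs in all and give each symbol to 1 ID, so that further copies of either gene in this polyploid crop may stand unnamed in the table and were not analysed here. Both were listed in all 12 libraries. RNA was pooled from leaves and tuberous roots over the sampling times of each treatment. The 4 groups held 3 libraries each: CK (no treatment), HT (heat), DR (drought, imposed on the roots with polyethylene glycol, PEG) and DH (drought and heat together). All plants were kept in Hoagland solution. CK was grown in a chamber of its own, so that chamber and stress cannot be told apart. The libraries of a group are called biological replicates by the study, but whether each came from its own plants is not given, so the p-values below cover pool-to-pool spread. A pool of 2 organs sets one limit for every result here: fewer cells of a type and less RNA per cell cannot be told apart.

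Tyrosine is broken down by way of hydroxyphenylpyruvate, which HPD (hydroxyphenylpyruvate dioxygenase) converts to homogentisate. HGO (homogentisate dioxygenase) then opens the ring of homogentisate, and the later steps give fumarate and acetoacetate, which feed central metabolism. In plants homogentisate is also the head group from which tocopherols and plastoquinone are made in the plastid. HPD therefore stands before a branch point, and HGO stands on the branch that degrades the ring.

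The primers with which the study amplified HPD for quantitative PCR are the sequence at hand for either gene. They were not aligned to any sequence here, so which copies they amplify is unknown. They read 5′ to 3′ as follows, the forward primer having 21 bases and the reverse primer 20 bases.
HPD forward: cagacctatctggagcacaac
HPD reverse: ccgctcctcttcctcatttc
The quantitative PCR values were not analysed here.

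The level of each gene is given as FPKM (fragments per kilobase of transcript, scaled to the mapped fragments of the library), which the authors computed and which already corrects for transcript length and library size. The libraries differed in their makeup. The number of genes with an FPKM above 0 ran from 13653 to 33410, and the 10 most abundant genes took between 34.7% and 89.7% of the summed FPKM. No read counts were used, so the depth behind a value is unknown and its counting error cannot be given. DR replicate 2 (DR2) lists 49073 genes.

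HPD was low and even in the control and high in every stressed library. Its FPKM was 21.1, 19.1 and 18.7 in CK1, CK2 and CK3. Under heat it was 891, 175 and 256 in HT1, HT2 and HT3. Under drought it was 318, 153 and 337 in DR1, DR2 and DR3. In DH1, DH2 and DH3 it was 1755, 146 and 561. The 9 stressed libraries all lay above the 3 CK libraries, and the lowest of them, DH2, was 6.92 times the highest CK library. Such a separation was seen in 188 of the 11208 genes that were tested and listed in all 12 libraries, or 1.68%. Taken by stress, the share of genes whose libraries all lay above CK was 11% for HT, 7.08% for DR and 5.04% for DH.

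**Figure D1:**
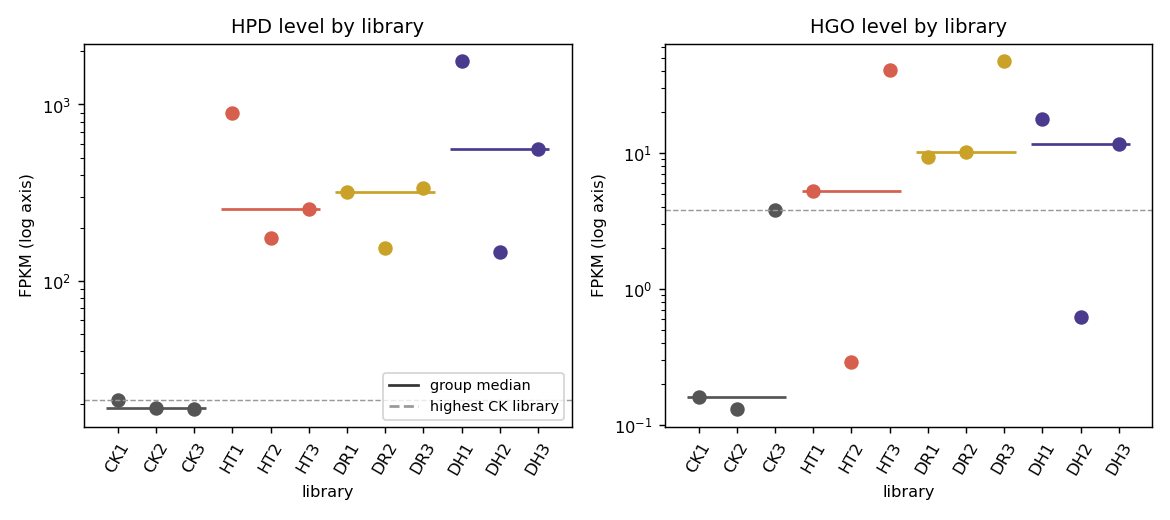
FPKM of HPD (left) and HGO (right) in each of the 12 libraries, on log axes, coloured by group; short lines are group medians and the dashed line is the highest CK library. All 9 stressed libraries lie above the dashed line for HPD, and 7 of 9 do for HGO, with HT2 and DH2 below it.

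The rank of HPD within its own library, which does not depend on how libraries are scaled to each other, also set the stressed libraries apart from CK. HPD was between the 1590th and the 2312th most abundant gene in the CK libraries. It stood between ranks 54 and 384 in the stressed libraries, with rank 54 in DH1. The median rank was 107 in DH, 313 in HT, 324 in DR and 2102 in CK. DH2, the lowest stressed library by FPKM, stood at rank 202, above every HT library but 1 and above every DR library. By group medians the order of FPKM was DH (561), DR (318), HT (256) and CK (19.1), so that DR and HT changed places between the scales. In FPKM the ranges of DH, DR and HT overlapped one another. In rank DH (54 to 202) and DR (283 to 338) did not overlap, and HT (168 to 384) overlapped with both. CK overlapped with none of them on either scale.

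The increase of HPD passed the test under heat and under the combined stress. The log2 fold change of FPKM + 1 against CK was 4.06 under HT (SE 1.02, adjusted p = 0.0499) by limma with Benjamini-Hochberg adjustment over 12295 genes. DH gave 4.67 (SE 1.02, adjusted p = 0.0175). Drought alone gave 3.63 (SE 1.02), with an unadjusted p of 0.00148 and an adjusted p of 0.108, which did not pass. With the replicate number as a block DR did pass (3.63, adjusted p = 0.0488), in a fit that called 121 genes raised against 72 without the block. The 3 same-numbered pairs of CK and DR deviated together, with correlations of 0.19 to 0.60. Among pairs of CK and DR with different numbers the correlations ran from -0.66 to 0.50. For the mean of the 3 stresses the change was 4.12 (SE 0.83, adjusted p = 0.00628). As ratios of geometric means these are 17.4 for HT, 13.0 for DR, 26.7 for DH and 18.2 for all stressed libraries, on FPKM as deposited. Among all genes tested, 0.569% were called raised under HT, 0.586% under DR, 0.577% under DH and 1.07% for the mean of the stresses. The exact permutation test of the 9 stressed against the 3 CK libraries gave p = 0.00455 (two-sided), which is the smallest that the 220 arrangements can give. The symbol of each gene comes from lists of genes that the study called on these same samples, so the direction against CK is not independent evidence. The study, which used a count model (DESeq2), reports HPD as up-regulated under HT, DR and DH. The result for DR here differs from that report.

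The calls for HPD rested on few libraries. The change under HT was just inside the threshold, and leaving out any one of CK2, CK3, HT1, HT3, DR1, DR2, DR3 or DH3 put it outside, with log2 fold changes of 3.37 to 4.26 and adjusted p between 0.0577 and 0.227. The change under DH did not pass without CK2 (4.65, adjusted p = 0.0731), without DH1 (3.80, adjusted p = 0.138) or without DH3 (4.62, adjusted p = 0.0792). The mean of the stresses did not pass without CK2 (4.10, adjusted p = 0.0568). The sign was positive each time.

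HGO was far less abundant than HPD and varied more. Its FPKM was 0.16, 0.13 and 3.77 in CK1, CK2 and CK3. Under heat it was 5.25, 0.29 and 40.4 in HT1, HT2 and HT3. Under drought it was 9.23, 10.2 and 46.9 in DR1, DR2 and DR3. In DH1, DH2 and DH3 it was 17.6, 0.62 and 11.6. Drought was the only stress in which all 3 libraries lay above every CK library, the lowest being 2.45 times CK3. Such a separation under DR was seen in 793 of 11208 genes, or 7.08%. In HT2 and DH2 the gene stayed below CK3, as near to the control as any stressed library came. HT2 and DH2 also had the fewest genes above 0 FPKM of the 12 libraries, 14425 and 13653. The highest library was 139 times the lowest within HT, 28.4 times within DH, 29.0 times within CK and 5.08 times within DR.

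The group medians of HGO were 11.6 FPKM in DH, 10.2 in DR, 5.25 in HT and 0.16 in CK. The ranges of HT and DH overlapped with CK, and DR overlapped with HT and DH but not with CK. In rank within its library HGO was between the 7495th and the 15831st gene in CK, between the 1183rd and the 3802nd in DR, between the 1628th and the 9603rd in HT and between the 2057th and the 6293rd in DH. No stress raised HGO beyond the threshold. Its log2 fold change against CK, each with an SE of 1.17, was 1.91 in HT (adjusted p = 0.444), 3.26 in DR (adjusted p = 0.329) and 1.97 in DH (adjusted p = 0.556). For the mean of the stresses it was 2.38 (SE 0.95, adjusted p = 0.251). The unadjusted p was 0.0101 under DR and 0.0196 for the mean, and the exact permutation test of stressed against CK libraries gave p = 0.05 (two-sided). The 95% intervals ran from -0.49 to 4.32 for HT, from 0.85 to 5.66 for DR and from -0.43 to 4.38 for DH. The HPD change of the same stress lay within the HGO interval in HT and DR and above it in DH. That comparison leaves out the SE of HPD and is not a test of a difference between the genes. As ratios of geometric means to CK, without a pseudocount, HGO gave 9.22 for HT, 38.3 for DR and 11.7 for DH. Over all stressed libraries the ratio was 16.1. These ratios rest on CK values with a median of 0.16 FPKM.

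**Figure D2:**
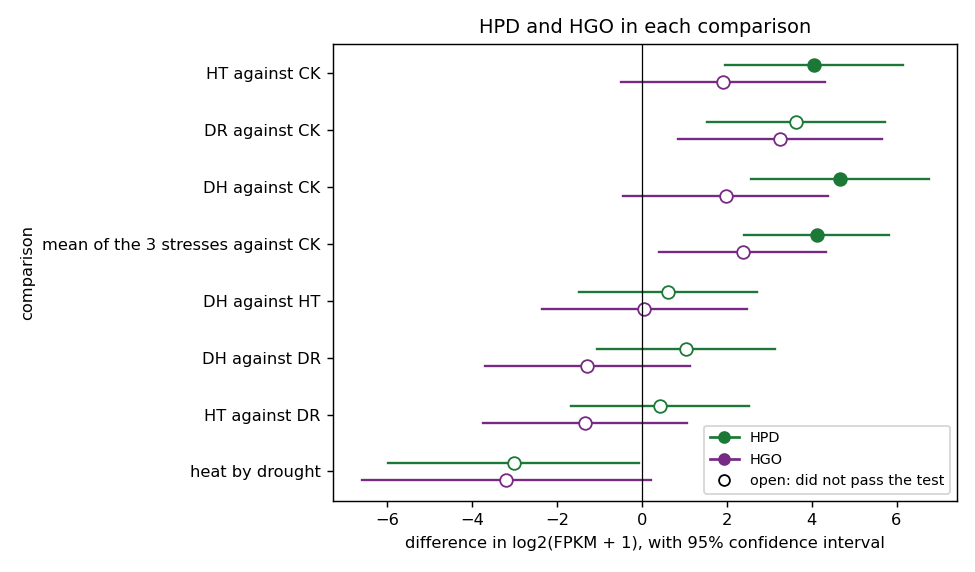
Differences in log2(FPKM + 1) for HPD (green) and HGO (purple) in the 8 comparisons, with 95% confidence intervals from limma; filled points passed the test and open points did not. HPD passed under HT, DH and the mean of the stresses, with values of 4.06, 4.67 and 4.12, and no comparison between stresses passed for either gene.

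No test told the stresses apart by either gene, though in rank HPD stood higher in every DH library than in every DR library. HPD in DH differed from HT by 0.62 on the log2 scale (interval -1.48 to 2.71, adjusted p = 0.851) and from DR by 1.04 (interval -1.05 to 3.13, adjusted p = 1.0). HGO in DH differed from HT by 0.06 (interval -2.35 to 2.47, adjusted p = 0.990) and from DR by -1.28 (interval -3.69 to 1.12, adjusted p = 1.0). Between HT and DR the difference was 0.42 for HPD (adjusted p = 0.922) and -1.34 for HGO (adjusted p = 0.766). Each of the intervals held differences of more than 2-fold in both directions. The term for heat by drought, which asks whether DH departs from the sum of the separate changes, was -3.02 for HPD (interval -5.98 to -0.06, unadjusted p = 0.0462, adjusted p = 0.901) and -3.20 for HGO (interval -6.60 to 0.21, unadjusted p = 0.0645, adjusted p = 0.901). The median of this term over all genes tested was -0.73. Under the alternatives the term ran from -3.89 to -1.75 for HPD and from -4.86 to -1.91 for HGO, and neither gene passed the test.

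HPD was very even among the controls for a gene of its level. Its SD over the CK libraries was 0.087 on the log2 scale, and of the 2949 genes with a mean CK level of at least 10 FPKM, 9 (0.305%) had a smaller one, against a median of 1.44. That evenness held for FPKM as deposited. With upper-quartile scaling of the libraries HPD ran from 14.5 to 37.6 in CK, with median-of-ratios scaling from 12.8 to 32.1, and the lowest stressed library was then 3.55 and 5.90 times the highest CK library. All 9 stressed libraries stayed above every CK library under each of the 4 scalings tried. For HGO, 6 or 7 of the 9 did. Within the stressed groups HPD spread widely, with an SD of 1.23 in HT, 0.63 in DR and 1.79 in DH on the log2 scale.

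HPD exceeded HGO in each of the 12 libraries, by a factor that ran from 4.97 to 602 on the FPKM scale. The ratio of HPD to HGO was 132, 147 and 4.97 in CK1, CK2 and CK3, and 170, 602 and 6.33 in HT1, HT2 and HT3. It was 34.5, 15.1 and 7.19 in DR1, DR2 and DR3, and 99.6, 235 and 48.6 in DH1, DH2 and DH3. The groups overlapped throughout, apart from DR and DH, in which every DH library had the higher ratio. The mean log2 ratio of HGO to HPD, with 1 FPKM added to both, was -5.22 ± 1.78 (SD, n = 9) in stressed libraries and -3.48 ± 1.24 (SD, n = 3) in CK. The difference of -1.74 did not pass the exact permutation test (p = 0.159, two-sided), and it shrank to -0.62 with a pseudocount of 0.1 and to -0.24 with 0.01. Against CK the exact p was 0.3 for HT, 0.7 for DR and 0.1 for DH, where 0.1 is the smallest that 3 against 3 libraries can give.

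**Figure D3:**
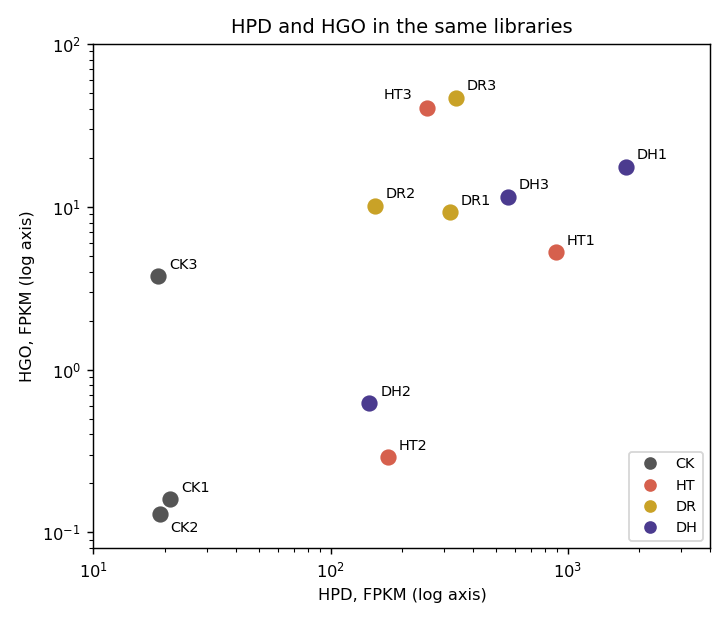
HGO against HPD in the 12 libraries, FPKM on log axes, coloured by group. The 3 CK libraries stand apart at the left with HPD near 20 FPKM, and HT2 and DH2 combine a raised HPD level (175 and 146) with HGO below 1 FPKM (0.29 and 0.62).

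Because the CK libraries stood apart in HPD, the relation of the genes was computed over the 9 stressed libraries. Pearson's r of log2(FPKM + 1) was 0.36 (exact permutation p = 0.333) and Spearman's rho 0.42 (exact permutation p = 0.270), both with an adjusted p of 0.333 over the relations computed. Without HT1 and DH1, the libraries farthest from the median of HPD, r was 0.56 (exact permutation p = 0.197). Taken as deviations from the mean of its own group, the 12 libraries gave r = 0.50 (exact permutation p = 0.259 within groups). A relation between the genes was not detectable with this number of libraries. DH1 had the most HPD and the most HGO of the DH libraries, as did DR3 of the DR libraries. In HT the most HPD was in HT1 and the most HGO in HT3. HT3 and DR3 had the most HGO of all libraries.

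The related genes were taken by role from the same lists of called genes, 14 in number, of which 12 passed the filter on low values (1 FPKM or more in 3 libraries or more). Under HT 2 were raised and 2 lowered, under DR 3 were raised and 1 lowered, and under DH 2 were raised and 3 lowered. Among all genes, 0.472% were called lowered under HT, 0.195% under DR and 0.968% under DH. Their median log2 fold change was -1.15, -0.19 and -1.57 under HT, DR and DH, beside 0.30, 0.07 and -0.37 over all genes tested. These genes carry names because the study listed them on the same samples, and a share above that of all genes is not independent evidence. With 1 library left out, between 0 and 2 of them were raised and between 0 and 3 lowered under HT. The counts were 1 to 3 raised and 0 to 2 lowered under DR, and 1 to 2 raised and 1 to 4 lowered under DH. Over the other alternatives they were 0 to 2 raised and 0 to 4 lowered in HT, 1 to 5 and 0 to 3 in DR, and 1 to 4 and 1 to 6 in DH.

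Of the 3 genes tested for the entry to the shikimate pathway, which supplies the carbon skeleton of tyrosine, 1 was lowered under HT, 0 under DR and 2 under DH, and none was raised. DHAPS-1 and SHKA are names of the synthase that begins this pathway. DHAPS-1 (G6925) read 19.7, 86.1 and 427 FPKM in CK1, CK2 and CK3, and no stressed library exceeded 9.51 (HT2). It was lowered in HT (-4.46 on the log2 scale, adjusted p = 0.0384) and in DH (-4.56, adjusted p = 0.0242), and in DR it read -3.90 (adjusted p = 0.0866). SHKA (G16674) was lowered under DH (-4.15, adjusted p = 0.0281), with 112, 7.5 and 51.4 FPKM in CK and 0.81, 1.59 and 0.92 in DH. It passed in HT under 5 of 13 other settings and in DR under 2, as DHAPS-1 did in DR under 3. The other SHKA (G15990) had values of -2.37, -2.08 and -3.50 under HT, DR and DH and did not pass. In DH its adjusted p was 0.0596, and it passed under 9 of 13 other settings, the replicate block among them (0.0114). A further DHAPS-1 ID (G6879) was too low to be tested. The call of DHAPS-1 in HT was lost without any one of CK2, CK3, HT1, HT3, DR3 or DH3 (adjusted p between 0.0551 and 0.184), and that in DH without CK2, CK3 or any DH library (0.0607 to 0.134). That of SHKA was lost without CK1 (0.0828), CK3 (0.0859) or any one DH library (0.0578 to 0.128).

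Of the 2 genes for phenylalanine ammonia-lyase, which turns the sister amino acid of tyrosine toward phenylpropanoids, 1 was lowered under every stress and none was raised. PALA (G292) read 391, 127 and 35.6 FPKM in CK, between 0.14 and 5.23 in HT, between 0.41 and 5.15 in DR and between 0.09 and 0.50 in DH. No stressed library reached the lowest CK library, a separation seen in 218 of the 11208 genes listed in all libraries, or 1.95%. PALA was lowered in all 3 stresses, with log2 fold changes of -5.73 in HT (adjusted p = 0.00640), -5.26 in DR (adjusted p = 0.00719) and -6.57 in DH (adjusted p = 0.00144). The call was lost under HT without HT1 (-5.52, adjusted p = 0.0553) and under DR without DR2 (-4.67, adjusted p = 0.0650). PAL (G26651) passed in none of them alone, with -2.45 in HT, -1.97 in DR and -2.71 in DH. It did pass in DH under 7 of 12 other settings and in HT under 4 of 12, with the replicate block in both (adjusted p = 0.0274 and 0.0438).

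Of the 3 genes of the glyoxylate cycle, which makes sugar precursors from acetyl-CoA, 2 were raised under every stress. MLS (G42670), malate synthase, read 6.10, 9.56 and 21.5 FPKM in CK and between 116 and 2576 in the stressed libraries. It was raised in each stress, by a log2 fold change of 5.52 in HT (adjusted p = 0.0200), 6.73 in DR (adjusted p = 0.00312) and 5.74 in DH (adjusted p = 0.00839). Without CK2, HT1 or HT3 the call under HT was lost (adjusted p of 0.110, 0.139 and 0.0506), as was that under DH without DH1 or DH3 (0.0770 and 0.0631). ICL2 (G23318), isocitrate lyase, read 6.0 and 0.43 in CK1 and CK2 and was listed at 0 in CK3, while the stressed libraries ran from 7.21 in HT2 to 1395 in DH1. It was raised under all 3 stresses, with adjusted p of 0.0486, 0.00653 and 0.00247 under HT, DR and DH. With each library left out in turn it passed in DH throughout. That under DR was lost without CK3 (0.0755), DR1 (0.0558) or DR3 (0.0554), and that under HT without CK2, CK3, HT1, HT3, any DR library or DH3 (0.0552 to 0.250). The other ICL2 ID (G23306) had values of 0.72, 3.12 and 2.19 and did not pass.

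**Figure D4:**
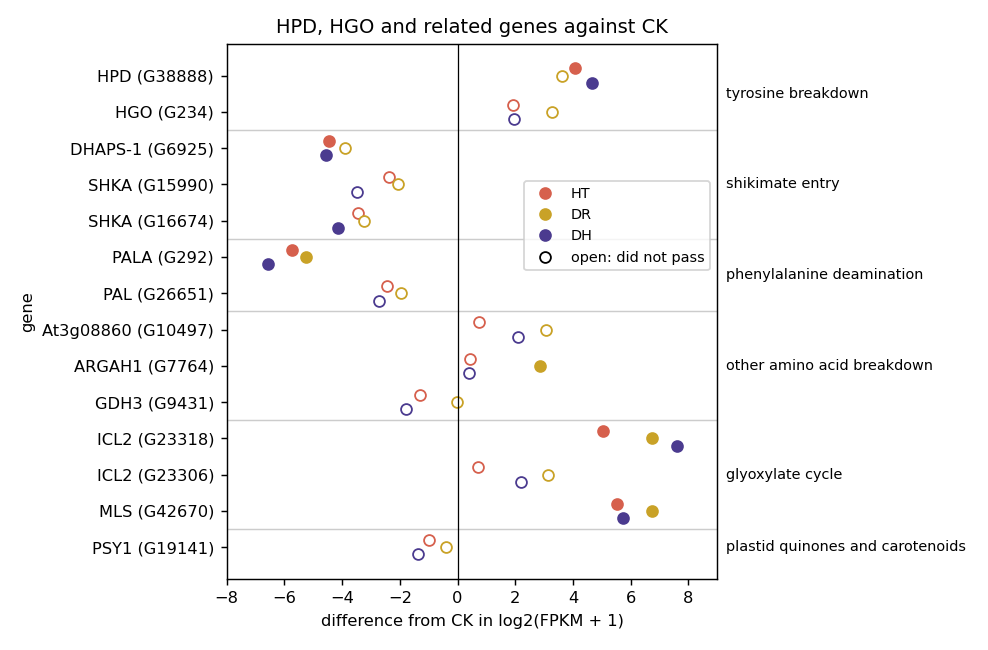
Difference from CK in log2(FPKM + 1) of HPD, HGO and the 12 related genes that were tested, grouped by role, under HT, DR and DH; filled points passed the test and open points did not. MLS and ICL2 (G23318) lie to the right with HPD under each stress, and PALA lies farthest to the left with -5.73, -5.26 and -6.57.

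Other genes of amino acid breakdown mostly did not pass. ARGAH1 (G7764), an arginase, read 2.73, 6.42 and 14.9 FPKM in DR and at most 1.68 elsewhere, and it was raised under DR (2.87, adjusted p = 0.0438). That call was lost without any one of CK1, CK2, CK3, HT1, DR2, DR3, DH1, DH2 or DH3 (adjusted p between 0.0594 and 0.259). At3g08860 (G10497), named for an aminotransferase of Arabidopsis that acts on alanine and glyoxylate, had values of 0.76, 3.07 and 2.08 under HT, DR and DH. GDH3 (G9431), a glutamate dehydrogenase, had values of -1.30, -0.003 and -1.78. Of the genes for plastid quinones and carotenoids, ABC1K3 (G17766) was too low to be tested and PSY1 (G19141), phytoene synthase, had values of -1.0, -0.39 and -1.36. None of these passed.

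Markers of the pooled organs, taken from the same lists of genes called on these samples, also differed in level between groups. A difference was thus built into their choice, and it does not measure the mix of organs. The summed FPKM of 6 IDs of leaf genes of photosynthesis and chlorophyll synthesis ran from 1054 to 4784 in CK, from 972 to 2470 in DR, from 69.0 to 358 in HT and from 23.2 to 416 in DH. The CRD1 copies G16398 and G16412 made up most of that sum, with 3504 and 1202 FPKM in CK1. GAPB, a lower one, ran from 1.76 to 18.5 in CK, 0.15 to 17.3 in HT, 1.44 to 18.8 in DR and 0 to 0.43 in DH. Of the 8 leaf genes tested, 0, 0 and 2 were lowered under HT, DR and DH. The summed FPKM of 5 storage root genes of starch metabolism ran from 33.8 to 1756 in CK, and from 0.56 to 45.3 over the stressed libraries. Of the 3 storage root genes that passed the filter, 0, 0 and 1 were lowered under HT, DR and DH. In 6 of 18 values of the leaf genes in HT, and in as many in DH, the gene was listed at 0. The part of these shifts in the results for HPD and HGO was not tested.

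Over the 12 libraries the levels of HPD and HGO had r = 0.62. Of 11207 genes compared with each, HGO ranked 878th for HPD, and HPD ranked 1283rd for HGO. Among 11207 other genes, Pearson's r of log2(FPKM + 1) with HPD was 0.9 or more for 42 and with HGO for 32. The genes most like HPD were G32108 (r = 0.98) and G36656 (r = 0.96), which those lists do not name. Among the 162 genes with a name, ACX2 (r = 0.96), Os04g0679100 (0.92), MLS (0.92), MBF1C (0.92) and G38386 (0.91) followed. ACX2 is an acyl-CoA oxidase of fatty acid breakdown in the peroxisome, and in Arabidopsis MBF1C is a transcriptional coactivator of the heat response. G38386 has the symbol AA5GT in one list of the study and the description of a universal stress protein in another, so its role is uncertain. ACX2 read 2.92, 4.96 and 0.88 FPKM in CK and 450, 24.4 and 149 in DH1, DH2 and DH3. As deposited HPD was also lowest in DH2 among the stressed libraries, whereas with upper-quartile scaling it read 341 there and 5 of the 9 stressed libraries lay below it.

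The genes most like HGO were G15548 (r = 0.98) and G20625 (r = 0.97), both without a name. The named genes most like it were AS (0.95), NEC3 (0.92), LOX2.1 (0.91), TSJT1 (0.89) and At3g08860 (0.87). LOX2.1 is a lipoxygenase, the class of enzyme that begins the synthesis of jasmonate and other oxylipins. It read 0.27, 0.00 and 0.27 FPKM in CK1, CK2 and CK3, and 46.3 in DR3 against 0.08 in HT2 and 0.35 in DH2. AS and LOX2.1 were below 1 FPKM in HT2 and DH2, and NEC3 was listed at 0 in both, as low as HGO was there. TSJT1 and At3g08860 were not as low, with 6.32 and 2.41 FPKM in HT2 and 1.84 and 5.15 in DH2. Fewer genes were above 0 FPKM in HT2 and DH2 than in any other library, and the part of this in the low values was not tested. These correlations describe 12 libraries that share groups, scaling and tissue mix.

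**Figure D5:**
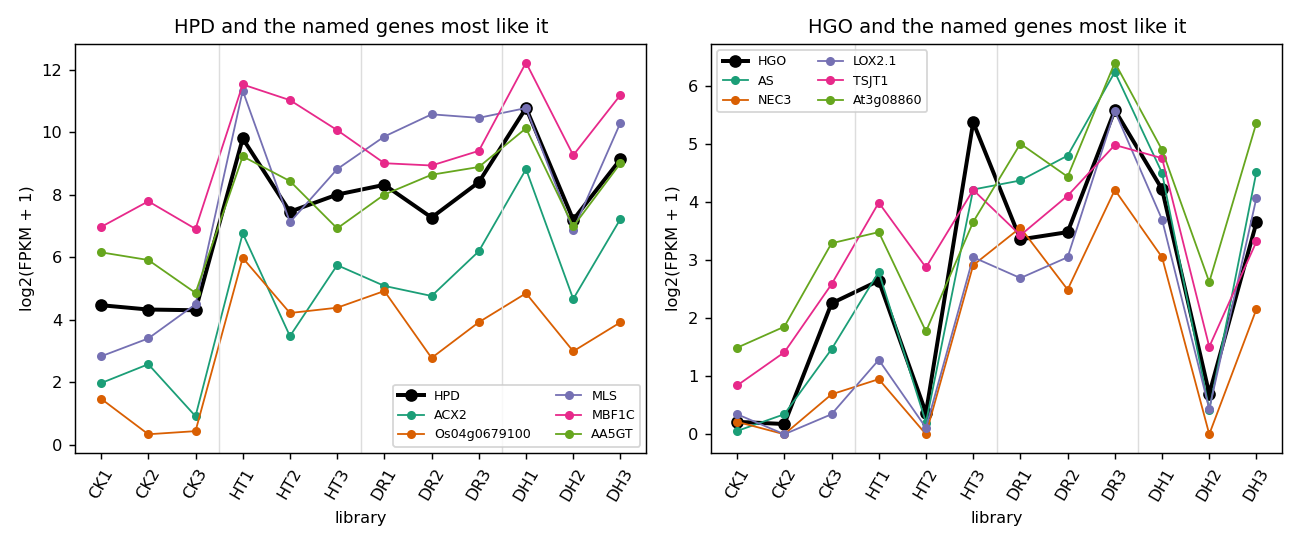
Levels as log2(FPKM + 1) of HPD (left) and HGO (right), in black, with the 5 named genes whose levels correlate best with each over the 12 libraries; lines only join the points of a gene. HPD and its companions, picked for this correlation, lie above CK in every stressed library. HGO and its companions are lowest of their groups in HT2 and DH2. HPD is lowest of its groups there too (175 and 146 FPKM), as is each of its companions in DH2. Of the 12 libraries, HT2 and DH2 had the fewest genes above 0 FPKM (14425 and 13653).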

How the data were processed

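RNA of pooled leaves and tuberous roots was measured in 12 libraries. The authors trimmed the reads (cutadapt 1.9 by the submitters' processing notes, Trimmomatic by the study's methods), aligned them with HISAT2 (2.0.4), assembled and quantified transcripts with StringTie (1.3.4d) and deposited 1 table of FPKM per library. The deposited FPKM carry no read counts, so no count model was run, and the depth of a library is unknown. Sums of FPKM ran from 1088868 to 1472561. Loci assembled by StringTie, 1519 in number, have no value in DR2 and were fitted on the other libraries.

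One limma model (3.58.1, under R 4.3.3) took the 12 libraries together on the log2(FPKM + 1) scale, with a trended eBayes prior (median 16.6 degrees of freedom) and two-sided tests. It covered the 12295 genes that reached 1 FPKM in 3 or more libraries. Calls of raised or lowered needed both a Benjamini-Hochberg adjusted p below 0.05 and a change of more than 1 on that scale. A fold change on this scale understates that of low genes such as HGO. Exact permutation tests and correlations used Python 3.11.15, numpy 2.4.6, pandas 2.3.3 and scipy 1.17.1. The correlation was planned over all 12 libraries and was computed over the 9 stressed ones after CK was seen to stand apart. The fit was tested on simulated data. Deviations from the group means correlated above 0.1 in all 3 same-numbered pairs of CK and DR, and in 1 or 2 of 3 for every other pair of groups. The differently numbered CK3 and DR2 also correlated, at 0.50, and the other such pairs of CK and DR ran from -0.66 to 0.08. Whether the replicate numbers pair the libraries is therefore uncertain. The replicate block was fitted over all 4 groups.

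Named are HPD, HGO, the 14 related genes and the markers listed by role, and the 2 genes of any kind and 5 named genes most correlated with each member. Members, lists and tests were chosen with earlier results of these data known. Symbols come from the study's lists of called genes, which name 228 of the IDs. The RefSeq gene table at hand matched 0 of the IDs, so positions are not given. HT, DR and DH share the CK libraries. Alternatives were other pseudocounts, filters and scalings, a fit restricted to the groups at hand, a replicate block, array weights and each library left out in turn. The authors' proteome and quantitative PCR values were not used here.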

Additional observations from a re-analysis of the deposited data

How the results depend on the processing

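HPD and HGO kept the sign of every change against CK under all alternatives run, and what varied was the side of the threshold. HPD under HT did not pass with a pseudocount of 0.01 (4.12, adjusted p = 0.0524), no filter (4.06, 0.257), libraries scaled to the same sum of FPKM (3.90, 0.0735), upper-quartile scaling (3.32, 0.0694) or only the groups compared (4.06, 0.165). HPD under DR passed with median-of-ratios scaling (3.41, 0.0470), the same sum without the 10 most abundant genes (3.67, 0.0271), quantile normalization (3.47, 0.0360), the replicate block (3.63, 0.0488) and array weights (3.65, 0.00357). HPD under DH did not pass without a filter (4.67, 0.0908), under which more genes are tested. HGO passed with array weights under DR (4.18, 0.00298), DH (3.05, 0.00187) and the mean of the stresses (3.08, 0.00253), and for the mean without HT2 and DH2 together (3.15, 0.0303), an alternative chosen after seeing the data. The array weights leaned on few libraries, with 4.625 for CK2 against 0.497 for CK1 and 0.240 for CK3, and 8.21 for DH3. CK2 had the lowest HGO level of CK (0.13 FPKM). The cause of these shifts across the threshold was not tested. With 1 library left out, HPD ranged from 3.37 to 4.54 (HT), 3.43 to 4.0 (DR), 3.80 to 5.59 (DH) and 3.83 to 4.43 (mean), and HGO from 0.62 to 3.13, 2.54 to 3.94, 1.29 to 3.05 and 1.95 to 3.07. The scalings moved the median of all genes by -0.40 to -0.01 (HT), -0.13 to 0.01 (DR) and -0.12 to 0.30 (DH), and HPD less that median stayed between 3.41 and 3.75, 3.44 and 3.59, and 4.92 and 5.42.

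The deviations of 10 of 18 same-numbered pairs of libraries correlated above 0.1 (median 0.17), against 10 of 36 differently numbered pairs (median -0.07). The replicate block changed no call of HPD or HGO other than HPD in DR. The number of genes called raised varied with the settings, from 5 to 1094 (HT, against 70), 17 to 730 (DR, against 72), 12 to 995 (DH, against 71) and 42 to 1313 (mean, against 132). That of lowered genes ran from 4 to 232, 3 to 249, 23 to 1264 and 58 to 613, against 58, 24, 119 and 171. The correlation of HPD and HGO over the stressed libraries ran from 0.08 to 0.48. Alternatives for the related genes were added after the data were seen. Besides the libraries named above, calls in HT were lost with only the groups compared for PALA (adjusted p = 0.0560), MLS (0.0802), ICL2 (0.157) and DHAPS-1 (0.179), and with no filter for the last 3 of these (0.116, 0.324 and 0.210) and with a filter of 6 libraries for ICL2 (0.0540). In DR, PALA was lost with a pseudocount of 0.01 (0.0818), ICL2 with no filter (0.0852) and ARGAH1 under 5 settings (up to 0.234). In DH, MLS was lost with no filter (0.0593), SHKA (G16674) under 2 settings (up to 0.108) and DHAPS-1 under 3 (up to 0.151). Without read counts, the counting error of HGO values below 1 FPKM cannot be given, and low levels there are not told from absence.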
